A study of Macaca mulatta with 6 samples.

Results

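The outer 2 Mb at each end of the 20 autosomes held 1487028 of the 25805743 autosomal CpG positions listed for rhesus macaque (Macaca mulatta) blood DNA. A CpG is a cytosine followed by a guanine, the site at which mammalian DNA is methylated. A listed CpG was counted as part of an end when it lay less than 2 Mb from the first or from the last listed CpG of its chromosome. Each autosome thus had a start end and a last end, 40 ends in all, covering 80 Mb or 2.95% of the autosomal span and 5.76% of its listed CpGs. Over all sequences the table listed 26958235 positions. Only positions were used to choose and to describe the ends, and no measured methylation value was involved.

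The DNA came from peripheral blood mononuclear cells, the lymphocytes and monocytes of blood. The 6 donors were adult females, of which the labels place 3 at rank 1 (high ranking) and 3 at rank 5 (low ranking). No treatment is named in the labels for either group. The 12 columns of values in the deposited table carry no names, so none could be tied to an animal or a rank group, and no methylation level is given here. The position list belongs to no single animal, so its counts have no replicate error and nothing below compares animals or ranks.

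Chromosomes end in telomeres, long arrays of a short repeated sequence, and the stretch just inside is called the subtelomere. In primates, subtelomeres are known to be rich in G and C, to hold blocks shared between chromosomes, and to be rich in minisatellites, which are tandem arrays of short units. Methylated CpGs mutate readily to TpG, so most mammalian DNA is poor in CpGs, while CpG islands, often at gene starts, keep theirs. No source used here says how far each outermost listed CpG lies from its telomere. The first listed CpG lay between base 2 (chromosome 18) and base 428 (chromosome 7) of the chromosome coordinates, so the start ends reach to the first bases of the sequence the table is based on.

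CpGs lay closer together at the chromosome ends than along the rest of the same chromosomes. The ends held 18.6 listed CpGs per kb, against 9.25 in the rest of the autosomes. Set against the density of the rest of the same chromosome, the ends held 1.94 times the expected number of CpGs, and the median of the 40 single ratios was 1.999. Of the 40 ends, 38 were denser than the rest of their chromosome, 20 of 20 last ends and 18 of 20 start ends. As background, 42.8% of the 1307 windows of 2 Mb that tile the rest were denser than the rest of their chromosome as a whole. At least 2 times the density of the rest was reached by 20 ends and by 1.22% of those windows. In 23 of the 40 cases the end was denser than every 2 Mb window in the rest of its chromosome, and in 32 cases at most 4 windows were denser. These are full counts over 1 genome, in which chromosomes are not replicates, so no p-value is given.

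Per kb of span, the densest ends relative to their chromosome were on chromosomes 20, 8, 14, 15 and 5. On chromosome 20 the start end held 30.4 CpGs per kb against 10.3 in the rest, a ratio of 2.96. That on chromosome 8, a last end, held 23.9 per kb against 8.32, a ratio of 2.87. Chromosomes 14 and 15 had start-end ratios of 2.82 and 2.77. Chromosome 5 is the sparsest autosome, and its start end had a ratio of 2.66, with 19.5 CpGs per kb against 7.33. Each of these 5 ends was denser than every 2 Mb window in the rest of its chromosome. The order was another when only 1 kb tiles with at least 1 listed CpG were counted, in the ends and in the rest. Counted so, the last end of chromosome 17 had the highest ratio, 2.99. The last end of chromosome 8 and the start end of chromosome 6 followed, both at 2.95, and the start end of chromosome 20 had 2.56.

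Absolute density had another order than the ratio. On chromosome 19, the densest autosome, the start end held 31.9 CpGs per kb, the most of any end, against 13.9 in its rest, a ratio of 2.29. Its last end held 16.9 per kb, a ratio of 1.21, with 12 of the 30 windows in the rest denser. Chromosome 16 held 21.7 per kb in its start end and 28.4 in its last end, ratios of 1.64 and 2.13. On chromosome 5 the last end held 12.1 per kb, a ratio of 1.66. Chromosome 1 held 19.8 per kb in its start end, a ratio of 1.99, and 11.8 in its last end, a ratio of 1.18.

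**Figure D1:**
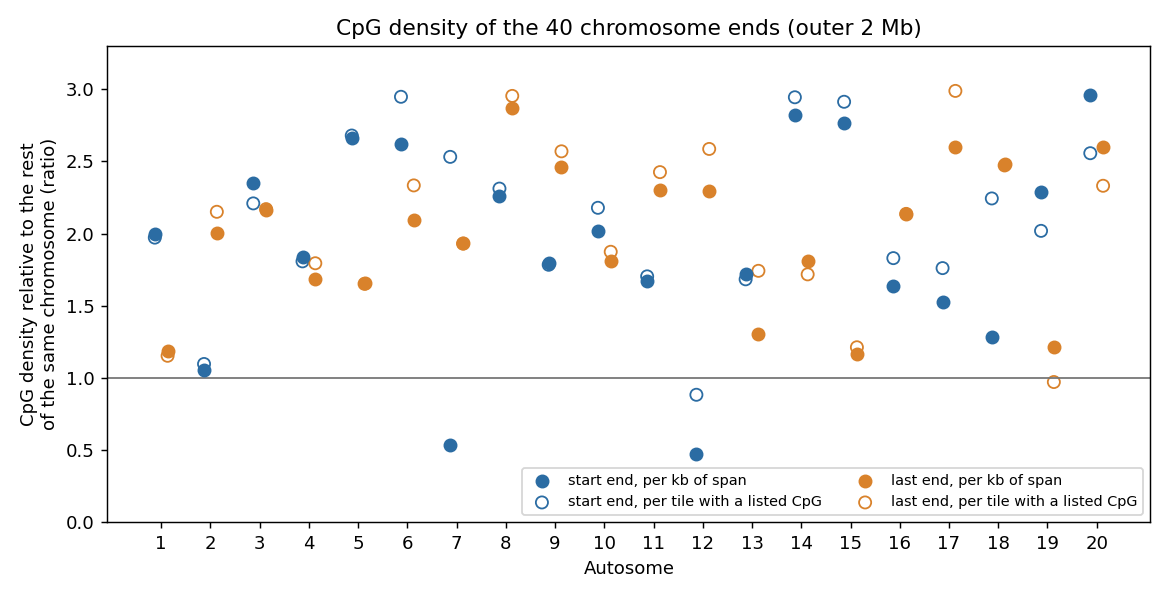
CpG density of the start end (blue) and the last end (orange) of each autosome, divided by that of the rest of the same chromosome, per kb of span (filled) and per 1 kb tile with a listed CpG (open). The grey line marks a ratio of 1, above which lie 38 of the 40 filled points, with the start ends of chromosomes 7 and 12 below it.

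The ends of 1 chromosome were often unequal. Per kb of span, the denser end exceeded the other by a median of 1.47 times, from 1.09 times to 4.84 times on chromosome 12. Both ends were denser than the rest on 18 of 20 autosomes, and both exceeded it by more than 1.5 times on 12. The last end had the higher ratio on 9 autosomes and the start end on the others, and the median ratio was 1.92 for start ends and 2.05 for last ends, so neither side was generally the denser. These values count empty stretches as part of the span. Per 1 kb tile with a listed CpG, chromosome 12 had ratios of 0.883 in its start end and 2.59 in its last end. On chromosome 7 the order turned, with 2.53 in the start end and 1.93 in the last end.

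Some of the ends with the lowest ratios had long stretches without any listed CpG. Density was therefore also counted per 1 kb tile with at least 1 listed CpG, with tiles laid from the outermost CpG inward. Chromosome 7 held 5.14 CpGs per kb in its start end, a ratio of 0.533, but only 404 of the 2000 tiles there held a listed CpG. Those tiles held 25.4 CpGs each against 10.05 in the rest, a ratio of 2.53. Chromosome 12 held 3.92 per kb in its start end, a ratio of 0.474, with 1041 tiles holding a listed CpG. Here the tiles that did hold CpGs were also sparse, at 7.53 CpGs each against 8.53, a ratio of 0.883.

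The start end of chromosome 2, at a ratio of 1.05, and the last ends of chromosomes 15 and 1, at 1.17 and 1.18, came next. Empty tiles made up 7.25%, 7.45% and 2.30% of these 3 ends, against 5.94% in the rest of the autosomes. Their ratios per tile with a listed CpG were 1.10, 1.21 and 1.15. The last end of chromosome 19 had a ratio of 0.971 per tile and was, with the start end of chromosome 12, 1 of the 2 ends below their rest when counted this way. Per kb of span, the only ends sparser than the rest of their chromosome were the start ends of chromosomes 7 and 12, both with long stretches without a listed CpG.

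Stretches without a listed CpG were more frequent in the ends than elsewhere. Of the 80000 tiles in the ends, 12.6% held no listed CpG, against 5.94% in the rest. The 5 longest such intervals were on chromosome 12 from base 780 to 657270 (656 kb), chromosome 7 from base 542336 to 1146430 (604 kb), chromosome 18 from base 113221 to 577830 (465 kb), chromosome 13 from base 136960310 to 137404075 (444 kb), and chromosome 7 from base 973 to 368646 (368 kb). The first 3 and the last of these lay in start ends. More than 20% of tiles were empty in 4 ends, the start ends of chromosomes 7, 12 and 18 and the last end of chromosome 13. In that order, they held 1596, 959, 890 and 615 empty tiles. Without these 4 ends, the ends held 2.05 times the expected number of CpGs. The shares of empty tiles in ends and rest are pooled and not matched by chromosome. By end, the share ran from 1.70% in the start end of chromosome 4 to 79.8% in that of chromosome 7. On chromosomes 19 and 20 the rest also had 2 Mb windows without any listed CpG. No source used here says whether the empty stretches hold sequenced bases.

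By 100 kb step from the outermost CpG, density was high from the first step to the last. Of 800 steps, 701 or 87.6% were denser than the rest of their chromosome, against 40.9% of the 26289 windows of 100 kb in the rest. The median ratio over the 40 ends was 1.61 in the outermost step and 1.70 in the second, the lowest of the 20 step medians. It was highest in the step from 500 to 600 kb, at 2.21, and was 1.77 in the step from 1900 to 2000 kb, the last inside the limit. In the 100 kb just outside the limit it was 1.52, with 35 of 40 ends above their rest. The outermost step was above the rest in 31 ends, fewer than in any other step, and the number ranged up to 38.

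**Figure D2:**
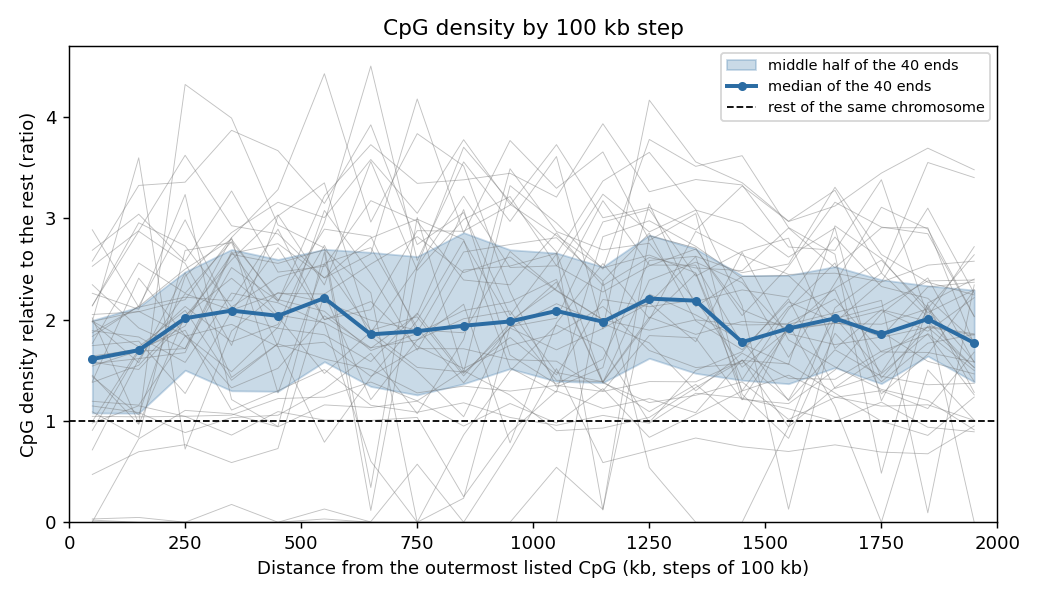
CpG density in each of 20 steps of 100 kb from the outermost listed CpG, relative to the rest of the same chromosome. Thin lines are the 40 ends, the blue line their median and the band the range between the quartiles. The median runs between 1.61 and 2.21 and lies lowest in the outermost step.

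The densest single steps held about 40 CpGs per kb. The step from base 1100031 to 1200030 on chromosome 20 held 4036 CpGs, 3.93 times the density of its rest, and 51 of its 98 tiles with a listed CpG held 40 or more. Chromosome 19 gave, in its start end, 3 of the 5 densest steps, with 4029 CpGs between bases 500033 and 600032, 3974 between 1200033 and 1300032, and 3930 between 600033 and 700032. The other was on chromosome 18 between bases 72967706 and 73067705, with 3936 CpGs at 4.43 times its rest. At the low end, 26 steps (3.25%) held no listed CpG, against 2.07% of the 100 kb windows of the rest. Of these 26, 11 were in the start end of chromosome 7, 6 in that of chromosome 12, 4 in that of chromosome 18, 3 in the last end of chromosome 13, 1 in the last end of chromosome 4 and 1 in the start end of chromosome 16.

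Farther inward the density came closer to that of the rest of the chromosome. The median ratio was 2.04 in the first Mb and 1.97 in the second. It was 1.64 in the third Mb, 1.66 in the fourth, 1.45 in the fifth, 1.27 in the sixth and 1.13 in the tenth, and it first reached a value below 1 in the 14th Mb, at 0.994. Against the adjoining 2 Mb instead of the whole rest, the ends held 1.18 times the expected CpGs, and 30 of 40 were denser. The difference between the second and the third Mb, across the limit of 2 Mb, was the largest between neighbouring steps of 1 Mb, and the median stayed above 1 for several Mb beyond the limit.

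**Figure D3:**
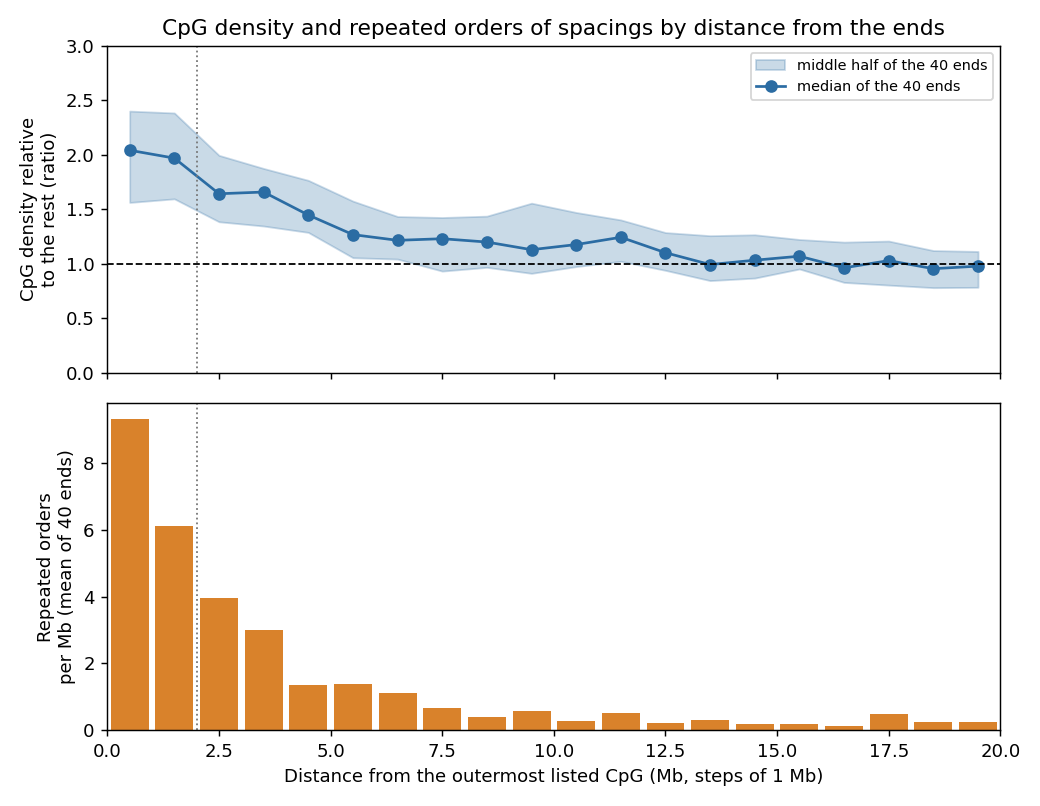
Top, CpG density relative to the rest of the chromosome in steps of 1 Mb from the outermost listed CpG (median and quartiles of the 40 ends). Bottom, stretches in which the order of CpG spacings repeats itself, per Mb. The dotted line marks 2 Mb. Density goes from 2.04 in the first Mb to 1.13 in the tenth, and the repeated orders from 9.33 to 0.575 per Mb.

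The tiles of the ends were shifted to denser classes as a whole. Among tiles with a listed CpG, those with 20 to 39 CpGs were the commonest class in the ends, at 36.04%, against 8.53% in the rest. Tiles with 5 to 9 CpGs, the commonest class of the rest at 38.2%, made up 16.1% in the ends, and those with 1 to 4 made up 6.95% against 25.2%. Tiles with 10 to 19 CpGs were 31.2% against 26.8%. Without the tiles of 40 or more CpGs, the ends still held 1.71 times the expected number of CpGs.

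Tiles with 40 or more CpGs, called dense here, numbered 6781 in the ends, or 9.70% of tiles with a listed CpG (95% exact binomial interval 9.48 to 9.92, counting error only). The interval takes neighbouring tiles as independent and does not measure the spread between ends, which is given below. The background in the rest was 1.28%. At the rates of the rest of each chromosome 1057 were expected, so dense tiles were 6.42 times as frequent, and the ends held 17.7% of all autosomal dense tiles. These values depend on tile size: in 5 kb tiles with 200 or more CpGs the share was 6.39% and the ratio 10.04. The share was higher than in the rest in 38 of 40 ends and ranged from 0.192% in the start end of chromosome 12 to 35.8% in that of chromosome 19. The lowest share in the rest of any chromosome was 0.576% and the highest 6.12%. By step, the share was 6.63% in the outermost 100 kb, 14.2% between 800 and 900 kb, and 6.13% in the innermost step.

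Runs of closely spaced CpGs were also more frequent. A run is here a row of 40 or more CpGs with no spacing above 50 bases, a layout like that of CpG islands. The ends held 2468 runs, 30.9 per Mb against 6.38 in the rest, 4.42 times the number expected from each chromosome, and the rate was higher in the ends of 20 of 20 autosomes. Runs held 13.6% of the CpGs of the ends and 5.39% of those of the rest. Typical runs were alike, with a median of 65 CpGs in 786 bases in the ends and 67 CpGs in 735 bases in the rest. Runs of 150 or more CpGs made up 9.60% of the runs of the ends and 5.35% of those of the rest. Of the 20 largest autosomal runs 8 lay in ends, which held 12.8% of all autosomal runs.

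The 5 largest runs of the ends lay 304 to 1411 kb from the outermost CpG. The largest spanned bases 1232604 to 1238185 of chromosome 19, with 570 CpGs in 5582 bases. Next were a run on chromosome 15 from base 1410888 to 1414752 with 452 CpGs and a run on chromosome 20 from base 304024 to 307755 with 365. The last end of chromosome 15 held a run of 356 CpGs from base 108810862 to 108814590. The last end of chromosome 16 held a run of 333 CpGs from base 78381742 to 78384032, the tightest of the 5 at 145 CpGs per kb. Coordinates are those of the table. Its genome build is not stated in any source used here, so no gene was assigned and no sequence is shown.

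Ends and rest were next compared between tiles of like density. For each end tile the expected value was that of tiles in the rest of the same chromosome with a CpG number in the same class (1 to 4, 5 to 9, 10 to 19, 20 to 39, or 40 or more). Within classes the ends still lay a little higher, with 27.6 CpGs per tile against 25.2 expected in the class of 20 to 39, but lower in the dense class, with 56.7 against 61.5. The tiles on either side of an end tile were denser in each class. Beside tiles of 1 to 4 CpGs they held 9.69 CpGs on average against 6.53 expected. Beside tiles of 20 to 39 they held 25.7 against 17.1, and beside dense tiles 38.1 against 34.04. In the 4 lower classes this held on 20 of 20 autosomes, and in the dense class on 18. An end tile of a given class thus lay in denser surroundings than its match.

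Within matched classes, CpGs in the denser tiles of the ends were less often close together. Over all spacings, 30.2% of neighbouring CpGs in the ends were at most 10 bases apart against 19.1% in the rest, and the median spacing was 21 bases against 43. Within tiles of matched class the order turned for the denser tiles. In dense tiles 51.05% of spacings were at most 10 bases, against 56.5% expected, and in tiles of 20 to 39 CpGs 29.01% against 32.0% expected, each lower on 19 of 20 autosomes. In tiles of 1 to 4 CpGs the share was 5.61% against 3.81% expected, higher on 19. Matching tiles on the exact number of CpGs gave a ratio of 0.909 over all tiles, below 1 on 20 of 20 autosomes, from 0.790 on chromosome 5 to 0.990 on chromosome 19. Dense tiles of the ends held fewer CpGs than their matches, 56.7 against 61.5, and no value at equal CpG number is given for them alone.

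**Figure D4:**
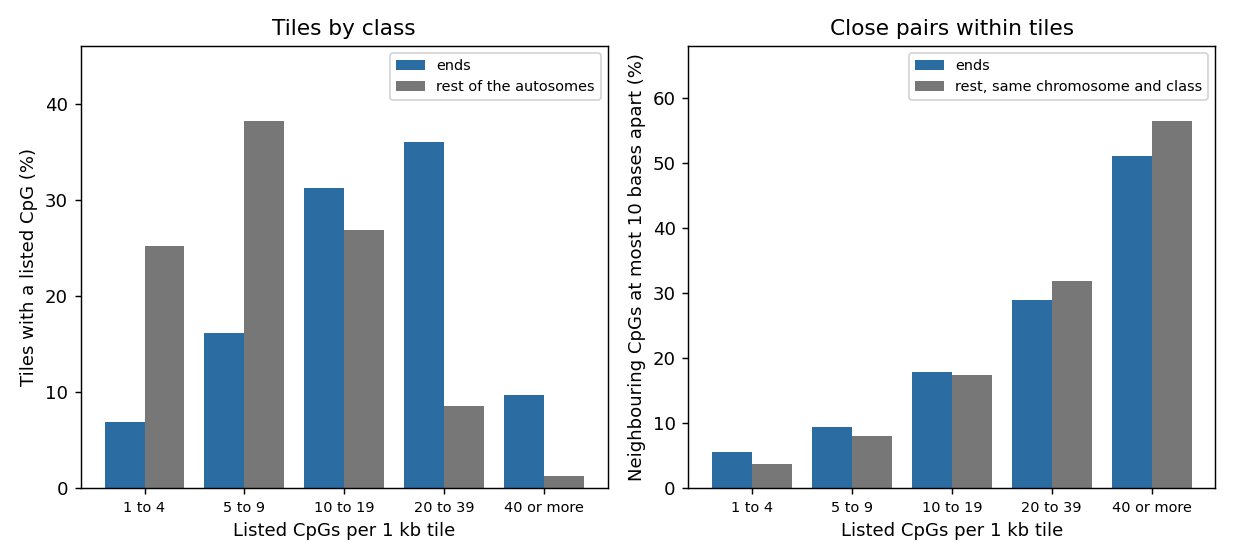
Left, share of 1 kb tiles with a listed CpG by number of CpGs, in the ends (blue) and the rest of the autosomes (grey). Right, share of neighbouring CpGs within a tile that are at most 10 bases apart, with the rest matched by chromosome and class. The ends hold 9.70% dense tiles against 1.28%, and in those tiles 51.05% close pairs against 56.5%.

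Fewer dense tiles of the ends overlapped a run. A run touched 49.8% of them, against 67.005% expected from dense tiles of the same chromosomes (67.5% over all dense tiles of the rest), with the share lower on 19 of 20 autosomes. Dense tiles of the ends also held fewer CpGs than their matches, as given above. With all tiles matched on the exact number of CpGs (80 or more as 1 class), the ratio of tiles touched by a run was 0.875, below 1 on 18 of 20 autosomes. In tiles of 20 to 39 CpGs the order was the other way, 3.63% against 2.79% expected, higher on 16 autosomes. The greater number of runs per Mb in the ends thus went with a smaller share of dense tiles that are part of a run.

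Individual spacings showed which distances were short in number. With tiles matched by chromosome and exact number of CpGs, 98 spacings from 2 to 99 bases were compared. The spacing of 4 bases occurred 64449 times in the ends, 0.795 times the expected number, and that of 8 bases 54058 times, 0.814 times. Spacings of 2, 24 and 38 bases occurred 0.826, 0.831 and 0.843 times their expected numbers. Each of these 5 was below expectation on at least 19 of 20 autosomes. The spacings most above expectation were 26 bases, at 1.26 times, 18 bases, at 1.23, and 27 bases, at 1.21, each on at least 19 autosomes.

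A pair of spacing orders that recur throughout the listed positions were under-represented in the ends at matched density. These are the orders 4, 5, 38, 2, 4 and 24, 20, 4, 8, 4 bases, each counted in both directions. Per Mb they were more frequent in the ends, at 26.4 for both orders together against 16.1 in the rest. In tiles of matched class, however, 2113 occurrences were found in the ends where 4628 were expected, a ratio of 0.457 that was below 1 on 20 of 20 autosomes. The ratio was 0.134 on chromosome 4, 0.138 on chromosome 5 and 0.909 on chromosome 19. Most of the shortfall lay in tiles of 20 to 39 CpGs, where the first order occurred 39.08 times per 1000 tiles against 98.9 expected and the second 22.02 times against 56.7. In tiles of 10 to 19 CpGs the ratio was 0.786 for the first order (lower on 14 autosomes). It was 0.516 for the second (43 occurrences against 83.3 expected, lower on 17 autosomes). In dense tiles the ratios were 0.921 and 0.782. There the first order was lower on 14 autosomes and higher on 6, and the second lower on 13 and higher on 7. These orders contain the spacings of 2, 4, 8, 24 and 38 bases, so their counts overlap with those of the single spacings above.

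Stretches in which the order of CpG spacings repeats itself were concentrated in the ends. Such a stretch was defined, after the ends had been looked at, as a unit of 1 to 12 consecutive spacings and at least 6 bases that is followed by itself, with at least 3 copies and at least 8 spacings equal to the one a unit earlier. This is the layout that a tandem array of near-identical units leaves in CpG positions. The autosomes held 1444 of them. The ends, with 2.95% of the span, held 618 or 42.8%, at 7.73 per Mb against 0.314 in the rest, and 23.1 times the number expected from each chromosome. The excess was found on 20 of 20 autosomes, from 4.90 times on chromosome 1 to 52.7 times on chromosome 14.

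The excess was smaller at matched density. In tiles of matched class, 713 end tiles overlapped a repeated stretch, or 1.02% of tiles with a listed CpG, against 140 expected, a ratio of 5.08. The background over all tiles of the rest was 0.0376%. The matched ratio was above 1 on 20 of 20 autosomes, lowest at 1.90 on chromosome 15 and highest at 11.5 on chromosome 2. In dense tiles 57.7 per 1000 overlapped such a stretch against 12.8 expected, and in tiles of 20 to 39 CpGs 11.1 against 1.97.

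The repeated units were of minisatellite-like length. The median unit in the ends was 38 bases, with quartiles of 31 and 49, and the median stretch had 5.0 copies and 207 bases. In the rest the median unit was 35 bases. Units of 25 to 60 bases made up 77.2% of the stretches in the ends and 68.04% of those in the rest, and units under 10 bases 1.13% and 8.23%. A changed, missing or unlisted CpG ends a stretch, so an array can be larger than its stretch. Stretches that overlapped were joined. The length is then that of the whole, and the unit and copies are those of the part with most matches. A joined stretch can thus hold more than 1 unit.

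The longest repeated stretch of any autosome was in the start end of chromosome 16, from base 429725 to 431165. It held 49 CpGs, each 30 bases from the next, in 48 copies of the unit. Chromosome 9 held, in its start end, 37 CpGs at the same spacing of 30 bases, from base 1013916 to 1014996. On chromosome 13, from base 464082 to 465054, a unit of 36 bases with 2 spacings was repeated 27 times. These were chosen as the longest after their values were seen.

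**Figure D5:**
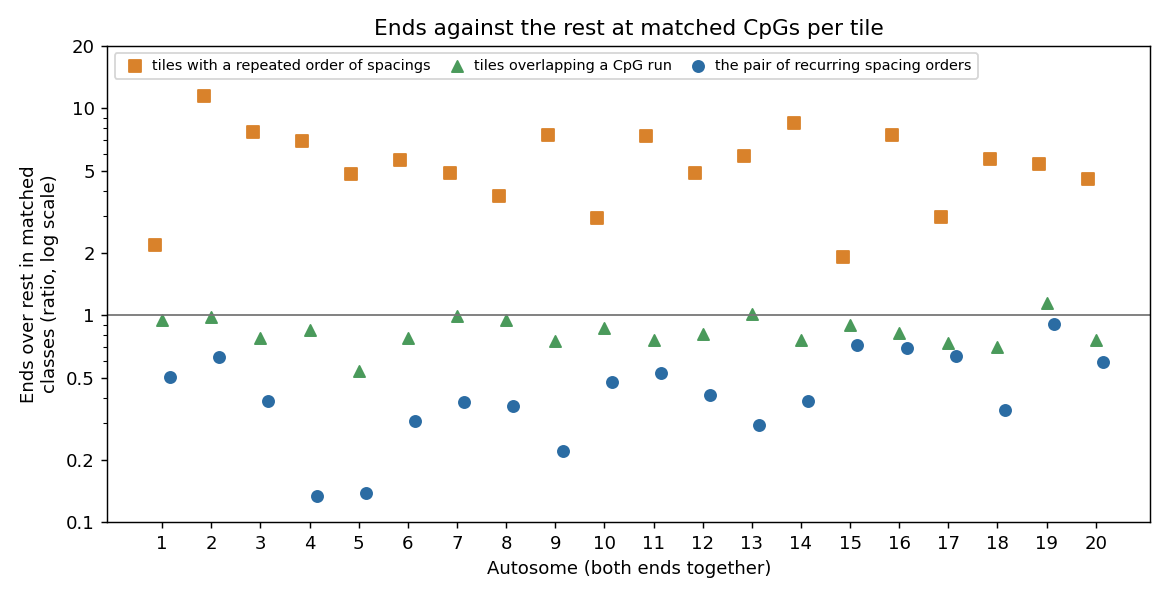
Ratio of the ends to the rest for each autosome in matched classes of CpGs per tile, on a log axis. Squares are tiles with a repeated order of spacings, triangles tiles overlapping a CpG run, and circles the pair of recurring spacing orders. The squares lie above 1 on 20 of 20 autosomes and the circles below 1 on 20 of 20.

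Repeated stretches were uneven between ends. At least 20 were found in each of 15 ends, with 34 in the last end of chromosome 9, 33 in the last end of chromosome 3 and 32 in the last end of chromosome 18. None was found in the last end of chromosome 1 or the start end of chromosome 12, both among the 5 ends of lowest density ratio. The others of those 5 did hold some, 10 in the start end of chromosome 2, 5 in that of chromosome 7 and 2 in the last end of chromosome 15. The start end of chromosome 19, the end richest in CpGs and dense tiles, held 21. By distance, 373 lay in the outer Mb of the ends and 245 in the inner Mb. The rate over all ends was 9.33 per Mb in the first Mb, 3.95 in the third, 1.35 in the fifth and 0.575 in the tenth.

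The repeated stretches made up little of the density of the ends. They held 0.859% of the CpGs of the ends and 0.0630% of those of the rest. Of the dense tiles of the ends, 391 or 5.77% overlapped such a stretch, and with all tiles that overlap one left out 9.23% of end tiles were dense.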

How the data were processed

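Blood DNA of 6 macaques was sequenced after bisulfite treatment. The authors deposited 1 headerless table in BED layout. Bismark, which aligns bisulfite reads and calls methylation, is named without a version, per the submitters' processing notes. No source used here gives the genome build or any filter on sites. The deposited unit used is another than a measured value: chromosome name and position in bases, of which the end column gives 1-based coordinates. The 12 unnamed value columns could not be matched to animals and were not used, so no depth is given.

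Tiles of 1 kb, 100 kb steps, classes, runs and spacing orders were computed with Python 3.11.15, numpy 2.4.6, pandas 2.3.3 and scipy 1.17.1. Figures used matplotlib 3.10.9. Expected values are rates in the rest of the same chromosome. For CpGs, runs and repeated stretches these are rates per base, multiplied by the span of the ends with its empty stretches. For dense tiles and matched classes they are weighted by the ends' tiles with a listed CpG, or by the spacings within those tiles. The last, incomplete tile of each rest was left out. Functions were checked on simulated positions. No test was run: the positions are a full count without replicates.

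Named ends are the 5 highest and 5 lowest ratios per kb of span, those of chromosomes 1, 5, 16 and 19, and the highest ratios per tile. Named steps are the 5 densest and sparsest (26 tied at 0, given by chromosome), and named runs and intervals the 5 largest. Regions and measures were chosen with earlier results of these data known. No gene or cell type list applied.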

Additional observations from a re-analysis of the deposited data

How the results depend on the processing

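Of the 49 alternatives run, 12 were chosen after seeing the data. Among those for a ratio of ends to rest, none put the ratio on the other side of 1. Alternatives for the number of denser ends, the dense-tile share and the step medians were not checked for direction, so none of them could turn. The density ratio of 1.94 was 1.88 with 1 Mb ends, 1.88 with 3 Mb ends, 2.05 per tile with a listed CpG, 1.88 with 2 Mb beside long empty intervals left out of the rest, 1.96 without the outermost 100 kb, 2.05 without the 4 emptiest ends, 1.96 without chromosomes 19 and 16, 1.71 without dense tiles and 1.18 against the adjoining 2 Mb. Leaving out 1 chromosome gave 1.90 to 1.98. Against the rest, 35 to 38 of the 40 ends were denser, and against the adjoining 2 Mb 30 were. With the 4 emptiest ends left out the count was 36, which is all of the ends kept. The dense-tile share of 9.70% was 12.8% in 500 base tiles with 20 or more CpGs, 6.39% in 5 kb tiles with 200 or more, 10.99% in 1 Mb ends, 7.99% in 3 Mb ends, 8.65% without chromosomes 19 and 16 and 9.96% without the 4 emptiest ends. Its ratio of 6.42 was 5.002 and 10.04 with those tile sizes, 5.58 with 3 Mb ends and 7.42 without chromosomes 19 and 16. The run ratio of 4.42 was 3.76 for runs of at least 20 CpGs and 4.64 without those chromosomes. The close-pair ratio of 0.922 was 0.909 with exact matching and 0.911 without those chromosomes, and the ratio of the recurring orders of 0.457 was 0.396 and 0.411. The repeated-stretch ratio of 23.1 was 26.1 with 12 matching spacings, 20.5 with 4 copies, 5.08 in matched classes and 4.44 at the same number of CpGs. The lowest step median of 1.61 was 1.53 in 50 kb steps and 1.69 per tile. The cause of these shifts was not tested. No paired analysis was possible because the value columns carry no sample names and no result comes from a test. The list may be a selection of CpGs, and unlisted CpGs would lower densities and break repeated stretches.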

Other observations

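The ends of the X chromosome, not among the autosomal ends, were also denser than the rest of their chromosome. The first 2 Mb held 11.6 listed CpGs per kb and the last 2 Mb 12.4, against 7.30 in the rest, ratios of 1.59 and 1.69. Of the 19 repeated orders of spacings on the whole X chromosome, 1 lay in the first and 3 in the last 2 Mb. Their rate per Mb in the rest of the X chromosome was not computed, so no ratio is given.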
